A study of Mus musculus with 16 samples.

Results

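Mature oligodendrocytes were taken from single-cell libraries of the neocortex of mice aged 17 months. A barcode was counted as a mature oligodendrocyte when it held 200 to 7000 genes, at least 2 unique molecular identifiers (UMIs, each standing for 1 captured mRNA molecule) summed over the 6 markers Mag, Mog, Ermn, Cldn11, Gjb1 and Anln, and at most 1 UMI summed over 9 markers of other cells, namely P2ry12 and Cx3cr1 of microglia, Aqp4 and Gja1 of astrocytes, Cldn5 and Flt1 of endothelial cells, Syt1 of neurons, and Pdgfra and Gpr17 of oligodendrocyte precursors. This rule chose 4364 of the 24578 barcodes with 200 to 7000 genes (17.8%). They came from 14 libraries, each made from 1 mouse, with 186 to 448 members per library.

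The study compared THY-Tau22 mice, a model of tau pathology in Alzheimer's disease, with wild-type (WT) littermates, and asked whether the sexes respond alike. THY-Tau22 mice were heterozygous for human tau with 4 microtubule-binding repeats and the changes G272V and P301S, driven by the neuronal promoter Thy1.2, so that the transgene is expressed by neurons. Dams of the colony were C57Bl6/J. There were 3 WT and 3 THY-Tau22 mice among the males and 3 WT and 5 THY-Tau22 mice among the females, whose replicate numbers only name the mice, so that p-values measure the spread between these mice. THY-Tau22 female replicate 1 shares an animal code in its title with WT male replicate 1, although the X-linked transcript Xist was detected in the former and at 0 in the latter, as in the other mice of each labelled sex. A library labelled as a THY-Tau22 male (replicate 4) held 2952 of the 3000 barcodes of a library labelled as a WT male (replicate 3), where the next highest overlap of any pair was 12, and both were left out as a single library that carries both genotypes.

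Oligodendrocytes wrap axons of the central nervous system in myelin, a stack of membrane made of lipids and of a few abundant proteins such as myelin basic protein. They also pass lactate and other metabolites to the axon and store much of the iron of the brain. In mouse brain they fall into several transcriptional states, told apart by genes such as Opalin, Klk6, Apod, Ptgds and Il33, and a further state with C4b and Serpina3n is known from models of neurodegeneration.

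The cells matched their label in a myelin gene that the rule did not use. Mbp, which encodes myelin basic protein, had a level of 4577 CPM (its UMIs per 1e+06 UMIs) in members with a marker sum of 3 or more and 3347 CPM in the 372 members with a marker sum of exactly 2. It had 1176 CPM in the barcodes just outside the rule with a marker sum of 1, and 173 CPM in those with none. Barcodes with enough marker UMIs but 2 UMIs of other cells' markers, just outside the second limit, held 3270.4 CPM. Mbp was detected in 88.6% of members with a marker sum of 3 or more, in 71.5% of those with a sum of 2, in 35.8% of barcodes with a sum of 1 and in 6.41% of barcodes with none. Among the markers of the rule, whose values chose the cells, Ermn was detected in 92.1% of members, Mag in 77.7%, Cldn11 in 54.3%, Anln in 38.4%, Mog in 25.5% and Gjb1 in 21.8%.

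Members held a median of 582 UMIs and 333.5 genes, with library medians of 455 to 773 UMIs, and their summed UMIs per library ranged from 136159 to 350054. A UMI of another cell's marker was present in 587 members, and 12 members had a barcode that occurred in more than 1 library. Mitochondrial ribosomal RNA (mt-Rnr1 and mt-Rnr2) varied between libraries and made up 14.6% to 20.2% of members' UMIs in WT males and 8.44% to 10.9% in THY-Tau22 males. It made up 8.75%, 3.44% and 19.1% in WT female replicates 1, 2 and 3. In THY-Tau22 female replicates 1 to 5 it made up 15.3%, 17.8%, 10.3%, 5.28% and 16.3%. WT female replicate 3 thus stood apart from the other WT females and lay with the WT males, as did THY-Tau22 female replicates 1, 2 and 5. The difference of -7.71 percentage points in males had an exact permutation p of 0.10, the smallest that 3 against 3 mice allow. Mitochondrial mRNAs ran the other way, from 0.448% to 0.731% in WT males and from 0.984% to 1.48% in THY-Tau22 males, and the other barcodes of the same libraries differed by 0.611 percentage points against 0.596 in members. These library measures moved with genotype in males, and their part in the gene results given next was not tested beyond the values printed with them. In the order of the numbers that open the library titles, all WT males used come before all THY-Tau22 males used. THY-Tau22 female replicates 1 and 2 also come before these THY-Tau22 males. What the order marks is not stated, and genotype and title order cannot be told apart in males.

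**Figure D1:**
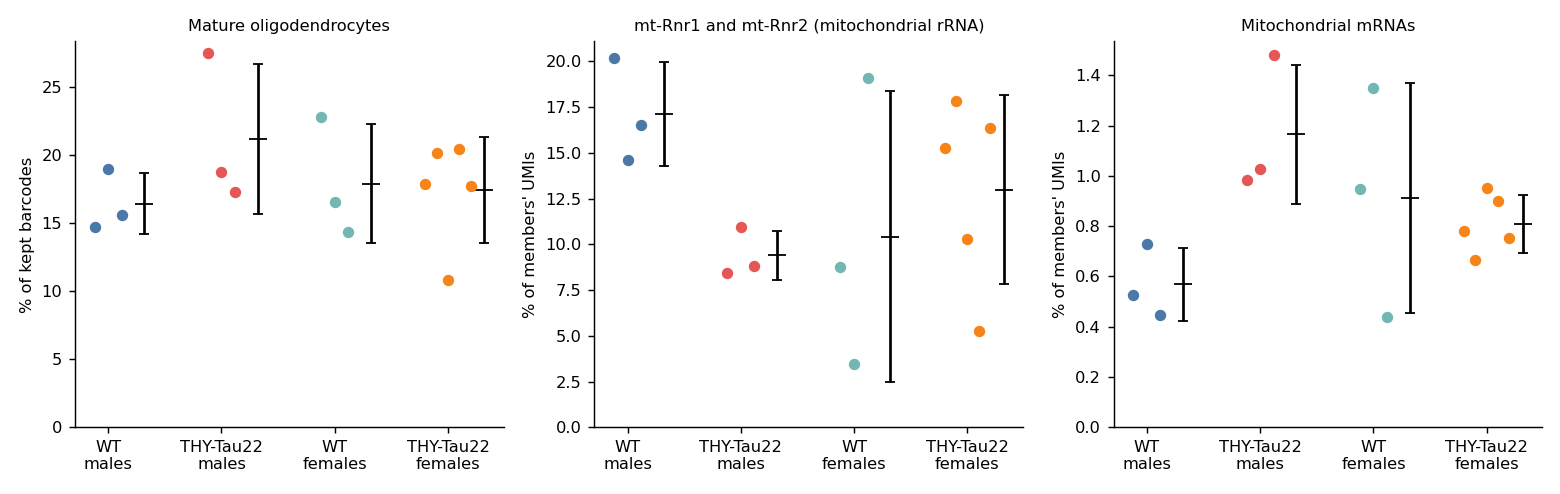
Share of kept barcodes that were mature oligodendrocytes, mitochondrial ribosomal RNA as a percentage of members' UMIs, and mitochondrial mRNAs as a percentage of members' UMIs, with 1 point per mouse and the mean and SD of each group beside it. Both male groups are apart in the middle and right panels, and 1 WT female lies at 19.1% mitochondrial ribosomal RNA.

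Members differed among themselves mainly in Apod and Ptgds. Apod encodes apolipoprotein D, a small lipid carrier, and Ptgds encodes prostaglandin D2 synthase. After each cell was thinned to 300 UMIs, which left 4324 members, Ptgds was detected in 57.4% of members (39.1% to 75.0% across libraries, and 71.4% without thinning) and Apod in 50.6% (36.8% to 65.4%, and 68.5% without thinning). In microglia, which should lack both and were thinned to the same depth, the shares were 1.71% and 1.28%, and intervals and floors on such shares cover counting error only.

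The pair was found together less often than the product of their shares in 13 of 14 libraries. In WT male replicate 1, for example, 25.3% of members had Apod alone, 30.4% had Ptgds alone, 13.2% had both and 31.2% had neither, where the product of both shares is 16.7%. THY-Tau22 male replicate 3 was the exception, with both in 33.2% of members against a product of 30.2%. Counts of the 4324 thinned members, which share libraries and depth, were put on a log2 scale and centred within each library. On that scale Apod and Ptgds had a correlation of -0.21 across members.

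Genes were then set side by side between members with Apod alone and members with Ptgds alone, over the 667 genes with a mean of at least 200 CPM. The genes named here were chosen after their values were seen and are a description without a test. S100b, which encodes a calcium-binding protein of glia, had a level of 1048 CPM ± 556 (SD, n = 14 libraries) in members with Apod alone and 75.1 CPM ± 60.4 in members with Ptgds alone. It was higher with Apod alone in 14 of 14 libraries.

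Hapln2, which encodes a link protein of the matrix at the node of Ranvier, had 369 CPM ± 194 against 108 CPM ± 59.5, and Selenop, the selenium carrier, had 1315 CPM ± 406 against 442 CPM ± 236. Trf, the iron carrier transferrin, had 2757 CPM ± 747 against 1693 CPM ± 406. All 3 were higher with Apod alone in 14 of 14 libraries. The tetraspanin gene Cd9 was lower in 14 of 14 libraries, with 231 CPM ± 133 against 416 CPM ± 175, and Opalin, a membrane protein of myelinating oligodendrocytes, was lower in 11 of 14, with 246 CPM ± 84.2 against 500 CPM ± 282. In all, 11 of the 667 genes went the same way in every library.

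**Figure D2:**
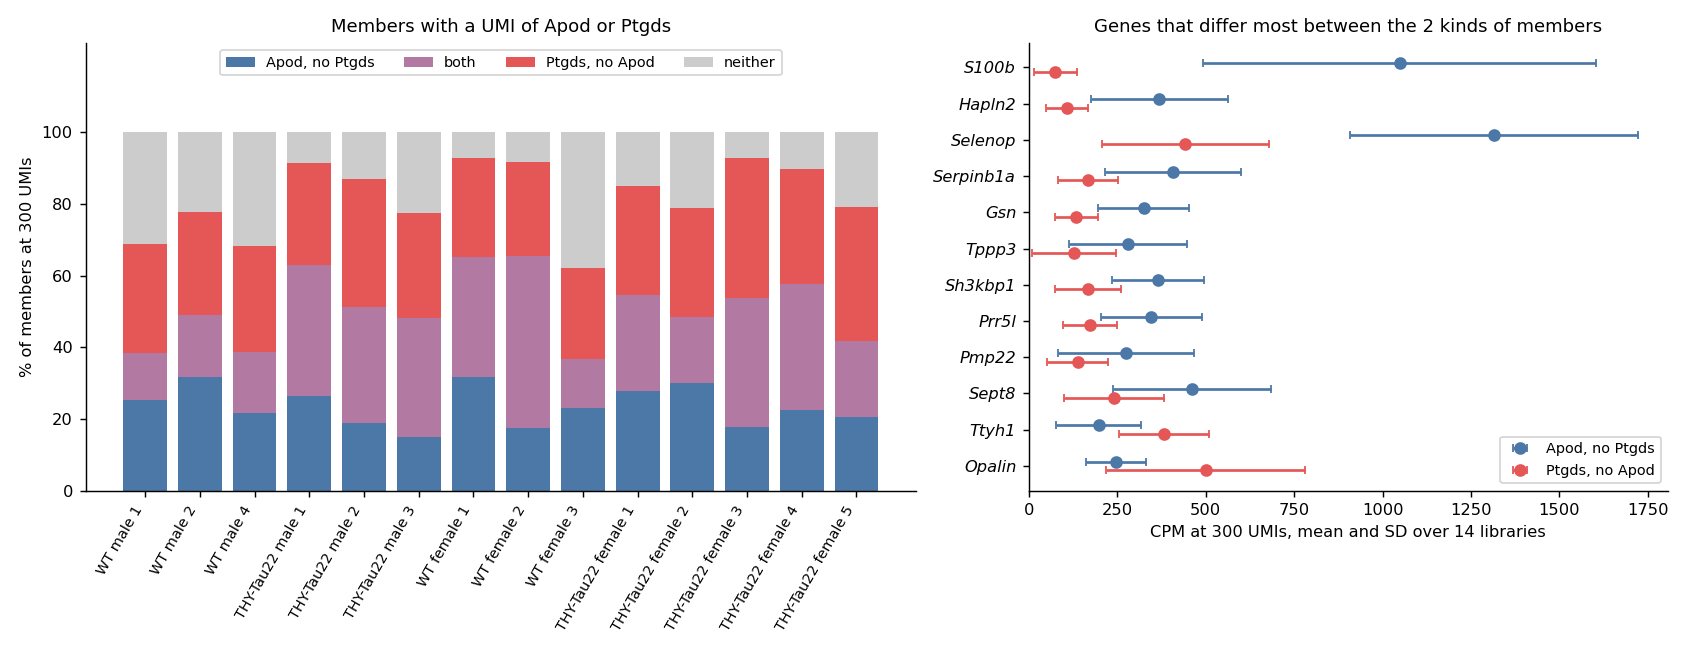
Left, percentage of members of each library, at 300 UMIs per cell, with a UMI of Apod, Ptgds, both or neither. Right, level in CPM of the genes that differed most between members with Apod alone and members with Ptgds alone, as mean and SD over the 14 libraries, with S100b at 1048 CPM against 75.1 CPM.

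The remaining state genes were rarer. Il33, which encodes an alarmin cytokine, was detected in 26.9% of thinned members and 0.404% of microglia, and Opalin in 10.6% and 0.141%. Klk6 was detected in 1.53% of members, C4b in 1.76%, Hopx in 0.879% and Serpina3n in 0.37%. The pooled shares of C4b and Serpina3n leaned on few mice. Of the 16 members with Serpina3n, 11 came from THY-Tau22 male replicate 1 (2.53% of its thinned members). Of the 76 members with C4b, 17 came from that mouse and 17 from THY-Tau22 female replicate 1. Without thinning, C4b was detected in 3.64% and Serpina3n in 0.848% of members, and at this depth such shares count cells with a UMI, not cells that express the gene. The immediate early genes Fos (18.6% of members) and Egr1 (9.44%) were detected more often in microglia, at 53.4% and 60.0%. Their log2 counts, centred within each library, correlated with each other across members (r = 0.35). Both genes encode transcription factors that are switched on within minutes of a stimulus.

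The share of members with Ptgds was 43.5% to 46.6% in WT males and 62.7% to 68.0% in THY-Tau22 males, with no overlap. The mean difference was 19.8 percentage points, with an exact permutation p of 0.10 and an adjusted p of 0.864 over the 40 tests of state genes. In females Ptgds was detected in 58.2% of members on average in WT and 61.4% in THY-Tau22 mice (exact permutation p = 0.75). For Apod the male means were 42.0% ± 6.05 (SD, n = 3) and 54.1% ± 7.84 (exact permutation p = 0.20). Of the 40 tests, 0 had an adjusted p under 0.05 and 0.864 was the smallest adjusted value. The male tests among them could not have passed, since 3 against 3 mice allow no exact permutation p below 0.10.

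The share of kept barcodes that were mature oligodendrocytes did not differ beyond the spread between mice. It was 14.7%, 19.0% and 15.6% in WT males and 27.5%, 18.8% and 17.3% in THY-Tau22 males. In females it was 22.8%, 16.6% and 14.3% in WT mice and 17.9%, 20.2%, 10.8%, 20.5% and 17.7% in THY-Tau22 mice. Only THY-Tau22 male replicate 1 stood clearly above the WT mice of its sex. The mean difference was 4.77 percentage points in males (exact permutation p = 0.30) and -0.494 in females (p = 0.911, exact permutation test), and the difference between the sexes was 5.26 (exact permutation p = 0.295). A larger share of oligodendrocytes and a smaller share of other cells cannot be told apart in such values.

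Levels were compared after summing the UMIs of members within each mouse. Of 4135 genes tested in males, 3 rose in THY-Tau22 mice and 0 fell (0.0726% of genes, edgeR's quasi-likelihood test, Benjamini-Hochberg adjusted p under 0.05 and a log2 fold change of at least 0.5). They were Gstp1, its pseudogene Gstp-ps and mt-Nd3. DESeq2 called 30 genes in males, 14 higher and 16 lower, and 2 of the 3 genes were among them. At an unadjusted p under 0.05 there were 693 genes (16.8%), 379 higher and 314 lower in THY-Tau22 males.

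Gstp1 encodes glutathione S-transferase pi, which joins glutathione to reactive compounds and is in common use as a marker of mature oligodendrocytes. It lies at chr19:4035407-4037985 on the minus strand (mm10). Here its summed level was 542 CPM in members and 13.2 to 54.5 CPM in the microglia, astrocytes, endothelial cells, neurons and precursors picked by their markers. Per mouse it was 268, 357 and 267 CPM in WT males and 1434, 594 and 725 CPM in THY-Tau22 males. Each THY-Tau22 male lay above each WT male, and the male groups did not overlap in 1104 of the 4135 genes (26.7%), while THY-Tau22 male replicate 1 was far above the other two. The log2 fold change was 1.62 ± 0.33 (SE), with an adjusted p of 0.031.

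Gstp-ps is a processed pseudogene at chr1:192073820-192074450 on the minus strand (mm10). Its level was 276, 470 and 283 CPM in WT males and 1705, 690 and 1067 CPM in THY-Tau22 males, again without overlap. The log2 fold change was 1.75 ± 0.32 with an adjusted p of 0.019. The 2 features shared sequence, since the last 300 coding bases of Gstp1 were identical in Gstp-ps and in Gstp2. Of the 441 stretches of 60 bases at the end of Gstp-ps, 352 occurred in another gene. For the ends of the Gstp1 transcripts this held for 566 of 1573 stretches, so most of these were found in Gstp1 only. Gstp-ps took 50.7% to 59.5% of the UMIs of the pair in every library. The 2 calls are therefore not independent, and how many UMIs of each came from shared sequence was not tested. The last 150 coding bases, shown because they read the same in the pseudogene, come from the GENCODE transcript.
Gstp1 and Gstp-ps: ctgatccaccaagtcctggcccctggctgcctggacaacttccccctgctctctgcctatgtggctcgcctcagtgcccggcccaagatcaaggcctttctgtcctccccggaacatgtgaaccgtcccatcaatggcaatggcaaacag

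Upstream of its RefSeq start, Gstp1 holds a form of the antioxidant response element that overlaps an AP-1 site. The motif searched was TGANTCAGC, or GCTGANTCA on the other strand, and it starts 74 bases before the start site. Only the 250 bases before the start were searched, and the motif occurred there in 317 of 27025 genes (1.17%). It occurred in 4 of 24 glutathione transferase and antioxidant genes with a window, namely Gstp1, Gstp2, Mt2 and Prdx1. The stretch up to the end of the motif is shown because Gstp1 was called in males, with the motif in capitals, and a match describes these letters only. It lies at chr19:4037978-4038162 on the minus strand (GRCm38.p6, from RefSeq). The motif, which ends the stretch, lies mostly inside the gene as GENCODE annotates it, since that gene runs up to position 4037985.
Gstp1 upstream: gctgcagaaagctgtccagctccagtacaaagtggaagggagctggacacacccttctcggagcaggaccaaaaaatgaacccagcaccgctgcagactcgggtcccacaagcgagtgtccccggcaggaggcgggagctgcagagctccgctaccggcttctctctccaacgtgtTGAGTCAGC

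The third gene, mt-Nd3 (chrM:9459-9806, mm10), encodes a subunit of complex I of the respiratory chain. It had 18.6, 29.4 and 15.7 CPM in WT males and 118, 65.1 and 142 CPM in THY-Tau22 males, with a log2 fold change of 2.30 ± 0.49 and an adjusted p of 0.043. The values of the WT males rest on few UMIs per mouse. The male groups did not overlap. Of its 289 stretches of 60 bases, 283 also occur in a nuclear copy, Gm28438, which had no UMI in members.

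These calls rested on few mice. The fit without WT male replicate 1, without WT male replicate 4 or without THY-Tau22 male replicate 1 called 0 genes in males, and the fit without WT male replicate 2 or without THY-Tau22 female replicate 2 called 1. It called 2 without THY-Tau22 male replicate 3, THY-Tau22 female replicate 1 or THY-Tau22 female replicate 5, and 3 or 4 without THY-Tau22 male replicate 2, THY-Tau22 female replicate 3 or WT female replicate 1. The count was 9 without THY-Tau22 female replicate 4, 21 without WT female replicate 2 and 81 without WT female replicate 3. Over these fits the log2 fold change stayed between 1.13 and 1.84 for Gstp1, between 1.34 and 2.04 for Gstp-ps and between 2.07 and 2.58 for mt-Nd3. With the mitochondrial ribosomal RNA share as a covariate the values were 1.03, 1.20 and 1.60, and 0 genes were called. At an unadjusted p under 0.05 there were then 196 genes (4.74%), against 16.8% without the covariate.

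In females 0 of 4135 genes were called (0% of genes by edgeR's quasi-likelihood test, and 0 by DESeq2), with 110 at an unadjusted p under 0.05 (2.66%). Fits without 1 mouse called 6 without WT female replicate 3, 2 without any 1 of the 6 males and 0 otherwise. Gstp1 was at 483, 893 and 276 CPM in WT females and at 377, 360, 492, 378 and 336 CPM in THY-Tau22 females, which lay inside the WT range. Its log2 fold change was -0.50 ± 0.29, with an adjusted p of 0.998, and 0.04 without WT female replicate 2. mt-Nd3 was at 84.2, 114 and 30.7 CPM in WT females and at 36.9, 27.2, 24.0, 50.7 and 38.3 CPM in THY-Tau22 females. In both genes WT female replicate 3 was as low as the THY-Tau22 females while WT female replicate 2 was above all of them. WT female replicate 1 was above all of them for mt-Nd3, but its Gstp1 level was below that of THY-Tau22 female replicate 3.

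Golga7, whose protein helps to attach palmitate to other proteins, separated both female groups. It had 112, 97.4 and 110 CPM in WT females and 51.7, 20.4, 54.0, 45.1 and 53.0 CPM in THY-Tau22 females, a log2 fold change of -1.19 ± 0.33 that did not pass (adjusted p = 0.998). The female groups did not overlap in 84 of 4135 genes (2.03%). In males the order was opposite, with 59.6, 53.9 and 39.3 CPM in WT and 101, 73.8 and 111 CPM in THY-Tau22 mice. Bace1, the beta-secretase that also cleaves neuregulin during myelination, had log2 fold changes of -0.83 ± 0.32 in males and -0.64 ± 0.30 in females (adjusted p = 0.192 and 0.998).

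Averaged over both sexes, 0 of 4135 genes were called (0%), with 211 at an unadjusted p under 0.05 (5.1%). Sgk1, a kinase induced by glucocorticoids, had 123, 44.1 and 47.1 CPM in WT males and 124, 113 and 257 CPM in THY-Tau22 males. It had 163, 70.4 and 92.0 CPM in WT females and 399, 285, 216, 50.7 and 227 CPM in THY-Tau22 females. THY-Tau22 mice lay mostly higher, with overlap in both sexes through WT male replicate 1, WT female replicate 1 and THY-Tau22 female replicate 4. The log2 fold change was 1.13 ± 0.31 with an adjusted p of 0.918. The fatty acid elongase gene Elovl5 had 0.85 ± 0.24 at the same adjusted p.

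The difference between the male and the female fold change was called for 6 of 4135 genes (0.145%), all with the higher value in males, and 664 genes had an unadjusted p under 0.05 (16.1%). They were Gstp-ps (2.25 ± 0.43 log2, adjusted p = 0.015), mt-Nd3 (3.34 ± 0.65, 0.015), Gstp1 (2.13 ± 0.43, 0.025), Gm10800 (3.31 ± 0.69, 0.026), Cd81 (1.88 ± 0.40, 0.033) and H2-D1 (2.85 ± 0.64, 0.048). In each the THY-Tau22 males and WT females were high on average and the WT males and THY-Tau22 females were low.

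Cd81 (chr7:143052739-143067934, mm10) encodes a tetraspanin of the cell surface and of extracellular vesicles. It had 302, 328 and 299 CPM in WT males and 709, 655 and 917 CPM in THY-Tau22 males. In females it had 764, 1034 and 289 CPM in WT mice and 502, 353, 564, 485 and 406 CPM in THY-Tau22 mice. The male groups were apart, and among WT females replicates 1 and 2 were above and replicate 3 below all THY-Tau22 females. None of its stretches of 60 bases occurred in another gene.

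H2-D1 (chr17:35262730-35267499, mm10) encodes a class I histocompatibility heavy chain, which shows peptides to cytotoxic T cells. Its level was 29.8, 29.4 and 15.7 CPM in WT males, from 8, 6 and 2 UMIs, and 91.4, 117 and 127 CPM in THY-Tau22 males. It was 84.2, 114 and 30.7 CPM in WT females and 29.5, 20.4, 72.0, 67.6 and 32.4 CPM in THY-Tau22 females. B2m, the light chain of the same complex, had a log2 fold change of 1.86 ± 0.47 in males, with an adjusted p of 0.103. H2-D1 was at 579 CPM in microglia and 62.4 CPM in members, and 13.8% of its stretches of 60 bases occur in other genes of the family.

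Gm10800 (chr2:98666547-98667301, mm10), a predicted gene, had 52.2, 58.8 and 7.86 CPM in WT males, from 14, 12 and 1 UMIs. It had 65.3, 108 and 169 CPM in THY-Tau22 males. It had 157, 168 and 26.3 CPM in WT females and 14.8, 47.5, 30.0, 28.2 and 32.4 CPM in THY-Tau22 females, with a log2 fold change of -1.94 ± 0.47 in females that did not pass (adjusted p = 0.823). It shares 80 of 441 stretches of 60 bases with other genes.

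**Figure D3:**
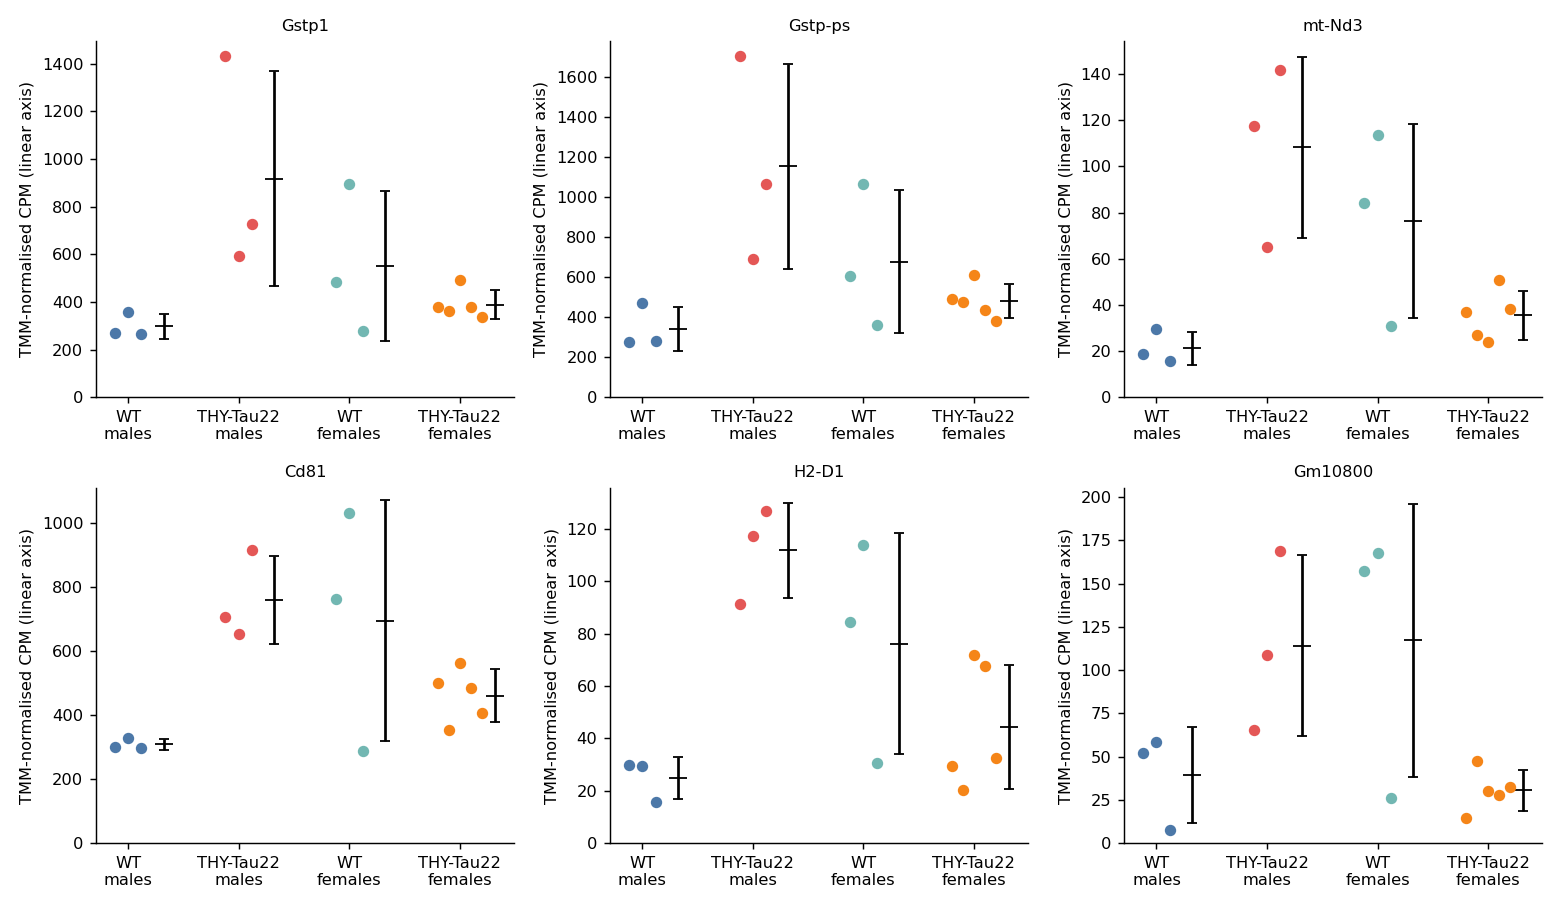
Level in CPM, normalised by trimmed mean of M-values, of the 6 genes whose fold change differed between the sexes, with 1 point per mouse and the mean and SD of each group beside it, on linear axes. The 3 THY-Tau22 males lie above the 3 WT males in each panel, and 1 WT female lies well below the other WT females.

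The interaction count changed when single mice were left out. The fit called 0 genes without WT male replicate 1, without WT male replicate 4 or without WT female replicate 2, 1 without THY-Tau22 male replicate 1, 2 without THY-Tau22 male replicate 3, and 3 without WT female replicate 1 or THY-Tau22 female replicate 2. It called 16 without THY-Tau22 male replicate 2, 80 without THY-Tau22 female replicate 4 and 402 without WT female replicate 3. WT female replicate 3 and THY-Tau22 female replicate 5 carry another code in their titles (MB22) than the other mice (MB21), with 1 mouse a group and so no value of their own. Within the MB21 libraries the male comparison called 61 genes and the female comparison 2. The interaction then called 288, with 2.40 for Gstp1 and 2.20 for Cd81. With the mitochondrial ribosomal RNA share as a covariate 0 genes were called for the interaction. At an unadjusted p under 0.05 there were then 187 genes (4.52%), against 16.1% without the covariate.

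Whether these fold changes were particular to mature oligodendrocytes was tested against all other barcodes of the same mice. None of the 6 genes passed. For Gstp1 the male fold change was higher in members by 0.30 ± 0.26 on the log2 scale (adjusted p = 0.959), and for Gstp-ps by 0.44 ± 0.25 (adjusted p = 0.949). For H2-D1 the difference between members and other barcodes in the interaction was 1.31 ± 0.52 (adjusted p = 0.843).

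Across 9039 genes, the test called 2 in males (0.0221%). It called 3 in females (0.0332%) and, for the interaction, 2 (0.0221%). Gm16228, called in males and for the interaction, had 190 UMIs in members and 659 in other barcodes, with UMIs in 10 of the 14 libraries. In THY-Tau22 female replicate 1, its highest library among members, 82 of 83 UMIs were in 1 member. In some called genes a single barcode held most UMIs of the highest library. Zdhhc3, called in females, had 92 of 96 UMIs of WT female replicate 2 in 1 member, and Gm29371, also called in females, had 39 of 46 UMIs of THY-Tau22 female replicate 1 in 1 member. Adamtsl1, called in both sexes, had 193 UMIs in members and 972 in other barcodes.

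Mobp, a structural gene of compact myelin, was called for the interaction. It had 6341 UMIs in members and 1891 in other barcodes, and the deepest member of its highest library held 16 of 669 UMIs. Its fold change in males minus females was lower in members than in other barcodes by 1.48 ± 0.31 log2 units (adjusted p = 0.036), while within members its male log2 fold change was 0.11 (adjusted p = 0.838).

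Without WT male replicate 1 this test called 0 genes in males, against 14 without THY-Tau22 male replicate 2, 9 without THY-Tau22 male replicate 1, 6 without WT male replicate 2 and 5 without WT male replicate 4. In females it called 0 without WT female replicate 2 and 5 without THY-Tau22 male replicate 3 or THY-Tau22 female replicate 4. For the interaction it called 14 and 13 without THY-Tau22 male replicates 1 and 2 and 6 without WT female replicate 3, and 1 without THY-Tau22 female replicate 2, THY-Tau22 female replicate 3 or WT female replicate 2.

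Genes were then read by role, with the counts at an unadjusted p under 0.05 in males set beside the 16.8% of all genes. Total-UMI scaling in place of trimmed mean scaling raised the median log2 fold change of all genes in males to 0.21 from 0.01, so list medians near 0 carry no direction. Of the structural genes of myelin, 3 of 19 were higher and 1 lower, with a median log2 fold change of 0.35 in males and -0.13 in females. Pllp, which encodes plasmolipin, had 0.79 ± 0.29 (adjusted p = 0.172) and Cd9 had 1.05 ± 0.29 (adjusted p = 0.119). Mal, a membrane protein of myelin rafts, had -0.58 ± 0.26 (adjusted p = 0.241).

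Mbp was at 3846, 4113 and 3079 CPM in WT males and 4899, 4673 and 5805 CPM in THY-Tau22 males. The male groups did not overlap, as in 26.7% of all genes, and the log2 fold change of 0.48 ± 0.27 did not pass (adjusted p = 0.359).

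Of 9 transcription factors of the lineage, 1 was higher, namely Sox10, the factor that keeps oligodendrocyte identity (0.80 ± 0.34, adjusted p = 0.215). Of 6 genes of differentiating and newly formed oligodendrocytes, 0 had an unadjusted p under 0.05 in males. Enzymes of fatty acid and myelin lipid synthesis had 1 of 19 higher, which was Elovl5 (1.39 ± 0.37, adjusted p = 0.109), and genes of cholesterol synthesis and handling had 1 of 11. Both shares are below that of all genes. Of genes for axon support, lactate and glycolysis, 3 of 15 were higher and 1 lower.

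Genes of mature oligodendrocyte states had 5 of 16 higher. Ptgds was at 2762, 2919 and 2789 CPM in WT males and 4501, 5025 and 7873 CPM in THY-Tau22 males, a log2 fold change of 1.04 ± 0.31 (adjusted p = 0.120). Apod was at 2225, 2595 and 2286 CPM against 5431, 2920 and 3798 CPM, with 0.77 ± 0.28 (adjusted p = 0.169). The male groups did not overlap in either, as in 26.7% of all genes, and for Apod the log2 fold change was 0.49 without THY-Tau22 male replicate 1. The carbonic anhydrase gene Car2 had 0.64 ± 0.26 (adjusted p = 0.204) and the protease gene Klk6 had 1.47 ± 0.54 (adjusted p = 0.170). Klk6 ran from 18.6 to 49.0 CPM in WT males and from 26.0 to 173 CPM in THY-Tau22 males, with overlap, and its log2 fold change was 0.76 without THY-Tau22 male replicate 1.

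Of 10 genes tested from the list of disease-associated oligodendrocytes, 6 were higher and 0 lower in males, with a median of 0.81, against -0.09 in females. They include H2-D1 and B2m. Only 2 interferon-stimulated genes and 2 iron genes were expressed enough to test, 1 of each higher. Fth1, the heavy chain of ferritin that stores iron, was at 6030, 8668 and 6701 CPM in WT males and at 13619, 11425 and 15485 CPM in THY-Tau22 males, with a log2 fold change of 0.92 ± 0.32 (adjusted p = 0.158).

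Glutathione transferases and antioxidants had 8 of 18 higher and 0 lower, Gstp1 and Gstp-ps included, with a median of 0.69 in males and -0.30 in females. Mitochondrially encoded mRNAs had 6 of 8 higher, with a median of 0.82 and -0.14. Among them, mt-Cytb of complex III had 1.22 ± 0.35 (adjusted p = 0.119) and mt-Nd1 of complex I had 0.96 ± 0.29 (adjusted p = 0.120), which was 0.63 without THY-Tau22 male replicate 3. The ribosomal RNA genes had 3 of 3 lower, with -1.26 ± 0.50 for mt-Rnr1, -1.01 ± 0.42 for mt-Rnr2 and -2.19 ± 0.58 for Gm42418, which holds a copy of nuclear ribosomal RNA (adjusted p = 0.195, 0.215 and 0.109).

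Ribosomal protein genes had 26 of 56 higher and 0 lower in males, and 52 of the 56 had a fold change above 0. In females 52 of 56 lay below 0, and 2 were lower at an unadjusted p under 0.05. Their summed level was 8590.5, 9627 and 7581 CPM in WT males and 13440, 11278 and 14736 CPM in THY-Tau22 males. It was 11064, 18452 and 7828 CPM in WT females and 10805, 8457, 10807, 11805 and 9280.5 CPM in THY-Tau22 females. WT female replicate 2 was the highest of all mice here and had the lowest mitochondrial ribosomal RNA share.

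Chaperones of the heat shock families had 1 of 21 genes higher and 6 lower, with a median of -0.33 in males and 0.06 in females. Hspa5, the chaperone BiP of the endoplasmic reticulum, was at 1379, 1156 and 1108 CPM in WT males and 461, 837 and 483 CPM in THY-Tau22 males, with -1.04 ± 0.28 (adjusted p = 0.109). Hsph1 had -1.17 ± 0.31 (adjusted p = 0.109). The small heat shock protein Cryab, abundant in oligodendrocytes, had 1.07 ± 0.34 (adjusted p = 0.136).

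Lysosome genes had 7 of 18 higher and 0 lower in males, among them the protease gene Ctsd (1.27 ± 0.50, adjusted p = 0.192) and Lamp1, a lysosomal membrane protein (0.68 ± 0.28, adjusted p = 0.212). Ctsd ran from 24.5 to 94.3 CPM in WT males and from 73.8 to 269 CPM in THY-Tau22 males, with overlap, and its log2 fold change was 0.62 without THY-Tau22 male replicate 3. Of the tested microglia markers 3 of 9 were higher, and their median was 1.18. The summed level of the microglia list, all 12 of whose genes had a UMI in members, was 250 to 589 CPM in WT males, 526 to 1067 in THY-Tau22 males, 359 to 693 in WT females and 224 to 1640 in THY-Tau22 females. The rule itself limited the microglia markers P2ry12 and Cx3cr1, which had 42 and 182 UMIs in members, so their low counts were set by the choice of cells. The part of microglial RNA in the lysosome, histocompatibility and Apoe values (Apoe 0.93 ± 0.28, adjusted p = 0.119) was not tested.

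The other lists of foreign cells had 12 of 12 genes with a UMI as well. Their summed levels in WT and THY-Tau22 males were 1714 to 2076 and 836 to 2843 CPM for astrocytes, 220 to 354 and 213 to 825 for endothelial and mural cells, and 118 to 235 and 147 to 318 for neurons. The precursor list, which includes genes that oligodendrocytes keep, ran from 1023 to 1405 and from 839 to 1189 CPM. Blood and choroid plexus genes had 7 of 8 with a UMI, with Folr1 at 0. The male ranges overlapped in each of these lists.

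Cytoskeleton and microtubule genes had 6 of 31 higher and 3 lower. Tubb4a, the beta-tubulin of oligodendrocytes, was at 421, 485 and 369 CPM in WT males and 1006, 573 and 928 CPM in THY-Tau22 males (0.97 ± 0.28, adjusted p = 0.119), and the actin-binding gene Pfn1 had 1.91 ± 0.45 (adjusted p = 0.086). The kinesin gene Kif1b, which moves cargo along microtubules, had -0.64 ± 0.25 (adjusted p = 0.195). Amyloid precursor and secretase genes had 1 of 8 higher, which was Itm2b (1.05 ± 0.29, adjusted p = 0.119), and 1 lower, which was Bace1. Immediate early and dissociation genes had 5 of 19 higher and 1 lower, and nuclear long noncoding RNAs 1 of 7 higher and 2 lower, with Malat1 at -0.94 ± 0.32 (adjusted p = 0.156).

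Of the 21 genes that the study listed for oligodendrocytes, a list chosen on these same mice and so not independent evidence, 11 were higher and 5 lower in males at an unadjusted p under 0.05, and 1 of the 21 was lower in females.

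**Figure D4:**
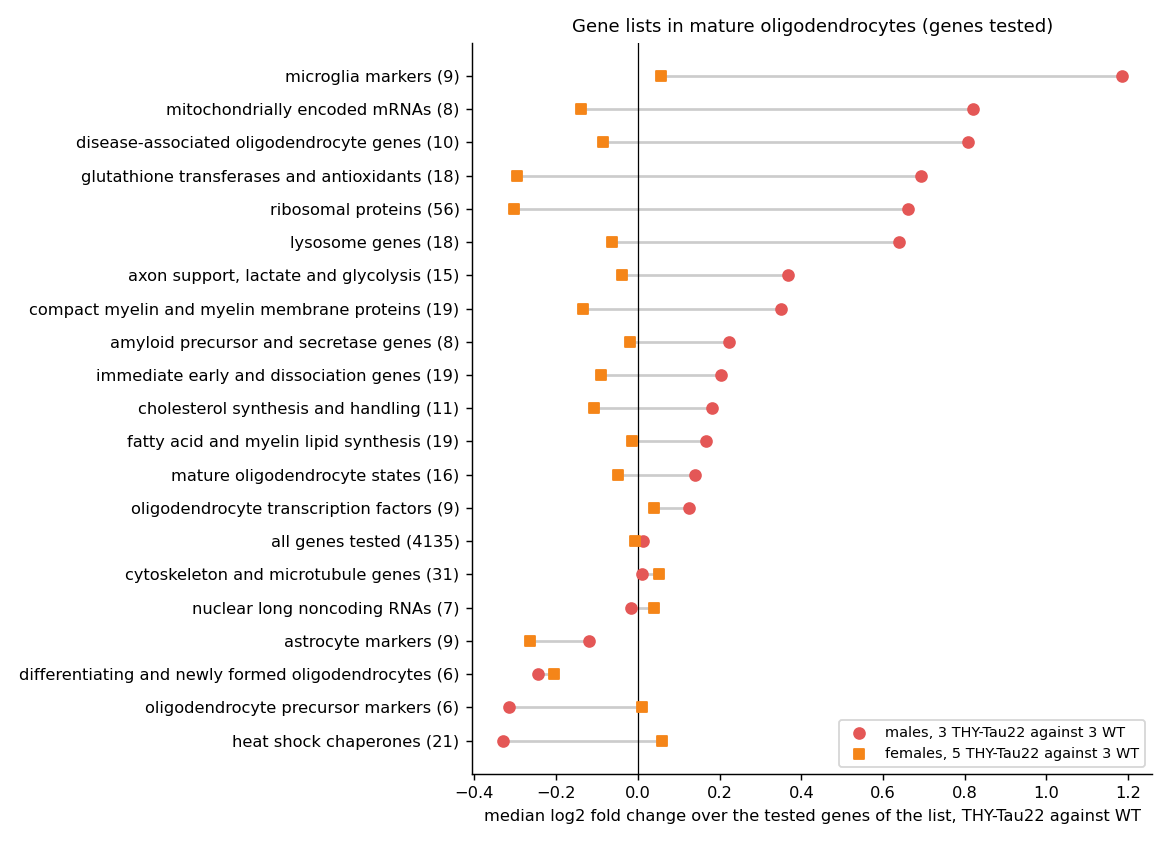
Median log2 fold change of THY-Tau22 against WT over the tested genes of each list with at least 6 of them, the study's own list left out, with the number of genes tested in brackets, for males as circles and females as squares. The male medians shown run from -0.33 for heat shock chaperones to 1.18 for microglia markers, and the female medians shown lie between -0.30 and 0.06.

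Between the sexes, averaged over both genotypes, 4 of 4135 genes were called (0.0967%). They were Xist and Tsix, which take part in inactivating the X chromosome and were higher in females, and the Y-linked genes Eif2s3y and Ddx3y, higher in males. Xist was at 0 CPM in all 6 males used and at 286 to 569 CPM in the 8 females, so that the sex labels held.

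S100b, which marked the members with Apod alone, had the next value outside the sex chromosomes. It had 265, 377 and 393 CPM in WT males and 238, 325 and 326 CPM in THY-Tau22 males. It had 657, 471 and 508 CPM in WT females and 447, 672, 630, 840 and 333 CPM in THY-Tau22 females, so that 7 of 8 females were above every male. The log2 fold change was 0.82 ± 0.19, which did not pass (adjusted p = 0.128, and 0.018 to 0.783 over fits without 1 mouse).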

How the data were processed

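Drop-seq libraries of dissociated neocortex were sequenced by the authors, and the deposited tables hold UMI counts per gene for 3000 barcodes per library (16 tables, 14 used). The authors processed reads with the standard Drop-seq pipeline, and per the labels the build was mm10; the aligner, tool versions and annotation are not given in the sources used here, and whether counting used strand is not stated. The marker rule was applied to barcodes with 200 to 7000 genes. No doublet caller was run; the limit of 1 UMI on other cells' markers was the only treatment of doublets. The members and gene lists were chosen with earlier results of these data known.

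UMI counts of members were summed per mouse, with at least 10 members required. Genes kept by filterByExpr (4135, without the 15 markers of the rule) were scaled by the trimmed mean of M-values and tested with edgeR 4.0.16 (R 4.3.3, glmQLFit and glmQLFTest, 1 mean per group, 4 groups sharing 1 spread). The methods of the study fitted cells as replicates; sums per mouse were used here. P-values were adjusted by Benjamini-Hochberg over all genes tested. Calls needed an adjusted p under 0.05 together with a log2 fold change of 0.5 or more in either direction. Levels are counts per 1e+06 UMIs (CPM) on the scaled library sizes. Fold changes of members were set against those of all other kept barcodes with mouse as a block (9039 genes). Shares used exact two-sided permutation tests, which cannot go below 0.10 in males (3 against 3) or 0.0179 in females (3 against 5). For shares of cells, each cell was thinned to 300 UMIs. The scripts were tested on simulated counts.

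Named genes were the markers, called genes or else the smallest p per contrast, the called genes and up to 4 others of each list, the study's oligodendrocyte genes, sex-linked genes and the most variable genes. Depth was 1041675 to 2237505 UMIs per library, of which members gave 136159 to 350054, so a gene at 20 CPM rests on few UMIs per mouse. Stretches of 60 bases, the read length, were compared over the last 500 bases of GENCODE M21 transcripts, and 1 UMI may have been assigned to either copy where they match. Promoters came from RefSeq tables on GRCm38.p6. Alternatives were other treatments of the shared library, scaling, filter, DESeq2 1.42.0, member rules, a covariate, and leaving out each mouse. Some items of the gene lists are not reported here.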

Additional observations from a re-analysis of the deposited data

Results flagged for a closer look

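In THY-Tau22 females, 65 measures were checked for a single mouse far from the other 4, which chance gives in about 1 of 20 groups, and 6 stood out. The share of kept barcodes that were mature oligodendrocytes was 10.8% in replicate 3 and 17.7% to 20.5% in the others. The same mouse had the highest Gstp1 level, 492 CPM against 336 to 378 CPM. Replicate 2 had the lowest Golga7 level, 20.4 CPM against 45.1 to 54.0 CPM.

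Il33 was detected in 38.7% of thinned members of replicate 4 and in 23.5% to 26.4% of those of the others. C4b was detected in 4.86% of thinned members of replicate 1 and in 0% to 1.36% of those of the others. Serpina3n was detected in 0.571% of thinned members of replicate 1 and in 0 members of the other 4 mice, where a count of 0 allows a share of up to 0.792% to 1.36%. The Serpina3n share in replicate 1 rests on 2 cells and lies below those limits, so that no difference in Serpina3n between these mice was detectable at this depth.

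The fold change of 6 genes differed between males and females by edgeR's quasi-likelihood test. The male minus female log2 fold change was 2.25 for Gstp-ps, 2.13 for Gstp1, 3.34 for mt-Nd3, 3.31 for Gm10800, 1.88 for Cd81 and 2.85 for H2-D1. The mitochondrial mRNA share of members had a male minus female contrast of 0.698 percentage points, which did not pass the adjustment (exact permutation p = 0.046, adjusted p = 0.88 over 44 tests of library measures). That difference was 0.711 percentage points in the other barcodes of the same libraries, and the mitochondrial ribosomal RNA share moved with it by -10.3 percentage points (exact permutation p = 0.073). The part of these library measures in the 6 gene results was not tested beyond the covariate fit.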

How the results depend on the processing

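The number of called genes depended on the treatment of the data. In males (3 genes) it was 0 with all 16 libraries as labelled, 6 with the shared library as a WT male, 0 with it as a THY-Tau22 male, 28 without a filter on low counts, 30 by DESeq2, 278 with only males in the fit, 0 without the deepest 5% of members, 61 without the libraries titled MB22, and 0 with the mitochondrial ribosomal RNA share as a covariate, which was chosen after seeing the data. In females (0 genes) it was 1 with all 16 libraries, 9 without the filter and 2 without the MB22 libraries. Over both sexes it was 7 without the filter. For the interaction (6 genes) it was 0 with all 16 libraries, 22 and 0 with the shared library as a WT and as a THY-Tau22 male, 22 with total UMIs as the scale, 23 without the filter, 21 by DESeq2, 0 with members thinned to 300 UMIs, 288 without the MB22 libraries and 0 with the covariate. Between the sexes it was 12 without the filter and 2 with thinned members. The cause was not tested in any of these.

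Leaving out 1 mouse gave 0 to 81 genes in males, 0 to 6 in females, 0 to 1 over both sexes, 0 to 402 for the interaction and 4 to 7 between the sexes. For members against other barcodes it gave 0 to 14 in males, 0 to 5 in females and 1 to 14 for the interaction. The difference in the share of members ranged from -2.29 to 1.96 percentage points in females, with 1.15 without THY-Tau22 female replicate 3 and 1.96 without WT female replicate 1. The interaction ranged from -14.6 to -6.79 percentage points for mitochondrial ribosomal RNA and from 0.479 to 0.935 for mitochondrial mRNA. The female difference in members with Apod ranged from -14.0 to 0.324 percentage points, turning positive without WT female replicate 1 (0.164) or 2 (0.324), and in members with Ptgds from -6.26 to 11.3, turning negative without THY-Tau22 female replicate 3 (-0.128) or WT female replicate 3 (-6.26). The log2 fold change of Gstp1 in females ranged from -0.82 to 0.038, the latter without WT female replicate 2. With the covariate, those of mt-Rnr1 and mt-Rnr2 in males turned to 0.38 and 0.12. The other 1890 of 1893 values of gene fold changes kept their direction, 1674 of them also their side of the threshold. No paired analysis was possible because the labels give no replicate numbers and those used here only name the mice.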

Other observations

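Across the 4324 thinned members, the counts with a large variance over mean included those of Rilpl1, mt-Rnr2, Meg3, Malat1, Ptgds, mt-Rnr1, Fos, Cst3 and Ctss. Rilpl1 owed its place to few cells, with 36 of its 120 UMIs in 1 member, and Meg3 had 16 of 238 UMIs in 1 member. Ptgds and Apod did not, with 20 of 6270 and 15 of 4189 UMIs in the deepest member.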
